A study of Homo sapiens with 18 samples.

Results

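The 10 genes described here are serum-induced immediate early genes outside the AP-1 family: EGR1, EGR2, EGR3, IER2, IER3, IER5, ARC, SRF, DUSP1 and KLF10. They were taken by symbol, and all 10 were found among the 26485 gene symbols of each count file. RNA-seq of polyA RNA was available for 18 libraries from 3 human pancreatic cancer cell lines, BxPC3, Panc327 and SUIT2. In each line 3 libraries came from cells given DMSO, the solvent control, and 3 from cells given 100 nM THZ1, both for 6 h, with no genetic change named for any group. Each line is a single established culture, and the labels do not say whether the 3 libraries of a group came from separate cultures. The p-values then measure only the spread between these libraries, which may be technical. The comparisons address how THZ1 changed gene expression in each line, as the series design states.

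Immediate early genes are transcribed within minutes of a growth factor or serum stimulus without new protein synthesis, and most of their transcripts decay quickly. In the classical route, ERK kinases phosphorylate ternary complex factors such as ELK1, which sit with serum response factor (SRF) at the CArG box, the core of the serum response element. THZ1 covalently blocks CDK7, the TFIIH kinase that phosphorylates the C-terminal domain of RNA polymerase II, and it also inhibits CDK12 and CDK13. Many pancreatic cancer lines carry active RAS-MAPK signalling, and EGR1 and DUSP1 are well-known ERK-responsive genes.

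The promoters of the genes are shown first because the CArG box ties several of them to SRF, itself one of the 10. RefSeq promoter windows on GRCh38.p14, running from 250 bases before to 50 bases after a start site, were matched for 6 of the 10 genes (EGR1, EGR2, IER2, IER5, SRF and DUSP1). The 5 windows printed cover the EGR, IER, SRF and phosphatase genes by which the results are ordered. They lie at chr5:138465229-138465528 on the plus strand for EGR1, chr10:62816317-62816616 on the minus strand for EGR2, chr6:43171019-43171318 on the plus strand for SRF, chr19:13150161-13150460 on the plus strand for IER2 and chr5:172771146-172771445 on the minus strand for DUSP1. Each is written 5′ to 3′ on the strand of its gene, and capitals mark the CArG boxes.
EGR1: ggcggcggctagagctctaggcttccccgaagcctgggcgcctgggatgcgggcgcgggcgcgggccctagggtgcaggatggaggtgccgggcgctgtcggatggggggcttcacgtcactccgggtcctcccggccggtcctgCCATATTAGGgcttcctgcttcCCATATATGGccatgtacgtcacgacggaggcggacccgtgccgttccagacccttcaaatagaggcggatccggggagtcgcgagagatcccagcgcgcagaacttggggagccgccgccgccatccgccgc
EGR2: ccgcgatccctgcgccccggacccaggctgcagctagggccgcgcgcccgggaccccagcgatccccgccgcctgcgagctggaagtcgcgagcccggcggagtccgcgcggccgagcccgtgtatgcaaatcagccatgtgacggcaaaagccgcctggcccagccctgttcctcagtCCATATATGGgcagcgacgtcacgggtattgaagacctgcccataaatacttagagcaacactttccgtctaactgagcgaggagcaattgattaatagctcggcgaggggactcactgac
SRF: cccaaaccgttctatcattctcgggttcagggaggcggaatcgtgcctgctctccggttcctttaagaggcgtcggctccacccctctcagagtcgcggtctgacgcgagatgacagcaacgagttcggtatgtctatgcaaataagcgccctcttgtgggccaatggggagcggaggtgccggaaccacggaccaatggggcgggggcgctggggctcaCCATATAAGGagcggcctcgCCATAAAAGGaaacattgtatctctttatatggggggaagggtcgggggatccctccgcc
IER2: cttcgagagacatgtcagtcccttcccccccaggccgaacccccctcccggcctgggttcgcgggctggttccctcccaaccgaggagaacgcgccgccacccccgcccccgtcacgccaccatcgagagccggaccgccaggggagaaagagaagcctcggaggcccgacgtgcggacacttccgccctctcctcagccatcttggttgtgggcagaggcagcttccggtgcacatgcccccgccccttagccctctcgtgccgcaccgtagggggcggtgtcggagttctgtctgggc
DUSP1: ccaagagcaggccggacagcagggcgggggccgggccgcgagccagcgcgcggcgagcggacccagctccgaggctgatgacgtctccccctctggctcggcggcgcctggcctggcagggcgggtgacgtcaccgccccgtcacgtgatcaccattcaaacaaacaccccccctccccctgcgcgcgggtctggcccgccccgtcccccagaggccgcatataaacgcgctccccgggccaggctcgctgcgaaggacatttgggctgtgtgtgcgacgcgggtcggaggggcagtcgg

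EGR1 held 2 CArG boxes, with first bases 105 and 83 bases before the start site. SRF also held 2, at 30 and 10 bases before its start, and EGR2 held 1, at 71 bases before. IER2, IER5 and DUSP1 had no match in these windows. A CArG box was found in 1.29% of all 35116 windows of 300 bases. The CRE core TGACG, the half-site of the CREB element, was matched in 5 of the 6 windows and in 24.6% of all windows. The ETS core CCGGAA was matched in 3 of 6 (17.2% of all windows), the EGR consensus in 2 of 6 (9.43%) and the TATA box TATAAA in 2 of 6 (11.5%). Both strands were searched. No matches of different motifs overlapped in the 6 windows, but CRE cores on opposite strands can overlap each other, as 2 of the 4 in DUSP1 did. The window used for IER2 starts from a RefSeq start site 1564 bases from the start of its principal GENCODE transcript. A match describes the letters only.

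**Figure D1:**
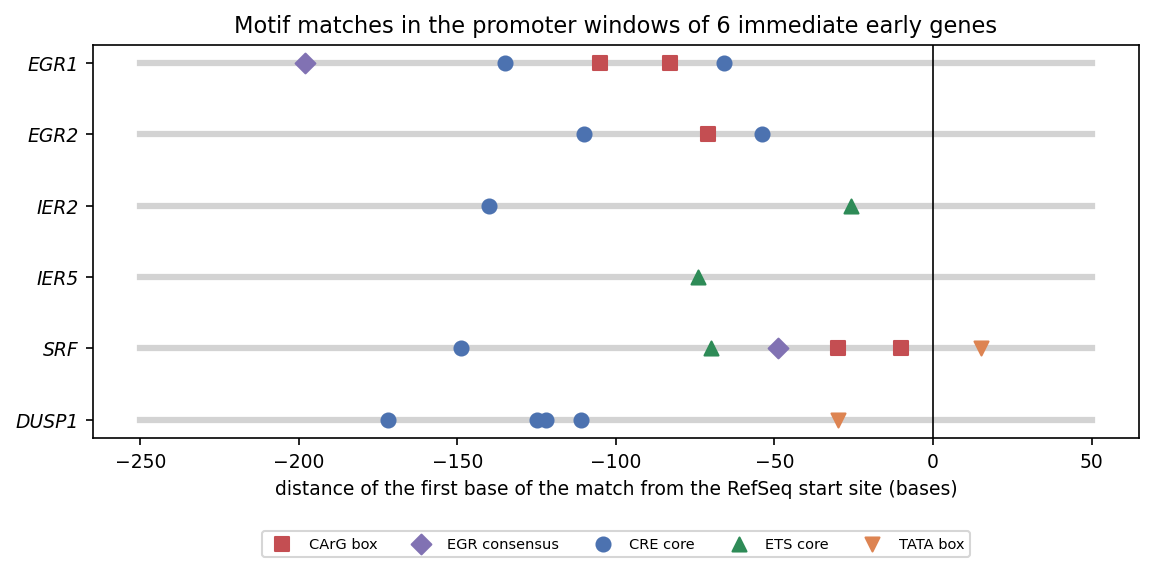
Motif matches on either strand in the promoter windows of 6 genes; the x axis is the distance in bases of the first base of a match from the RefSeq start site (vertical line). CArG boxes (squares) appear in EGR1, EGR2 and SRF, and DUSP1 has 4 CRE cores (circles).

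The libraries held 5626146 to 8631273 counts assigned to genes, and all 6 ductal epithelial markers examined (KRT7, KRT8, KRT18, KRT19, EPCAM and CDH1) had counts in all 6 groups, with summed levels of 4745 to 9912 CPM (counts scaled to a common library size). Summed levels of 3 leukocyte, 2 endothelial and 3 fibroblast markers were at most 5.17, 17.8 and 70.1 CPM, each highest in Panc327 with THZ1, where COL1A1 and VWF made up most of it. DCN had 0 counts in every group and PTPRC at most 1. The share of records that did not align uniquely rose with THZ1 from 12.2–13.4% to 21.9–23.4% in BxPC3 and from 13.5–13.8% to 51.7–54.9% in Panc327, while it was 12.8–14.1% with DMSO and 12–13.8% with THZ1 in SUIT2. Its part in the results below was not tested. The 10 genes took 0.0541–0.0584% of gene counts in DMSO and 0.150–0.160% in THZ1 libraries of BxPC3. These shares were 0.0546–0.0591% and 0.0589–0.0687% in Panc327, where the groups overlapped, and 0.0298–0.0319% and 0.0333–0.0350% in SUIT2.

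With THZ1, BxPC3 had higher levels of 8 immediate early genes and a lower level of 1, DUSP1, among the 9 that had enough counts to be tested. Panc327 had 5 higher and 2 lower, and SUIT2 had 3 higher and 0 lower. IER2, a nuclear regulator of transcription, was the only one of the 9 called higher in all 3 lines. Its SUIT2 call was lost when the first THZ1 library of that line was left out. The share of all tested genes called higher in all 3 lines was not computed. EGR1 moved in opposite directions in BxPC3 and Panc327. A call is an adjusted p under 0.05 by edgeR's quasi-likelihood test with Benjamini-Hochberg adjustment over 14011 genes. Over all tested genes 69.4% were called in BxPC3 (35.2% higher and 34.1% lower), 73.4% in Panc327 (35.6% and 37.8%) and 14.6% in SUIT2 (6.95% and 7.64%). All 9 genes were thus called in BxPC3, 7 of 9 in Panc327 and 3 of 9 in SUIT2. The median log2 fold change of the 9 genes was 1.21, 0.31 and 0.22 in BxPC3, Panc327 and SUIT2, beside 0.00, -0.01 and 0.01 over all tested genes, and in Panc327 it was -0.01 when libraries were scaled by size alone. ARC and EGR3 passed the filter on low counts through the groups where they were high, so these counts and medians are descriptions only. EGR2 did not pass it.

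**Figure D2:**
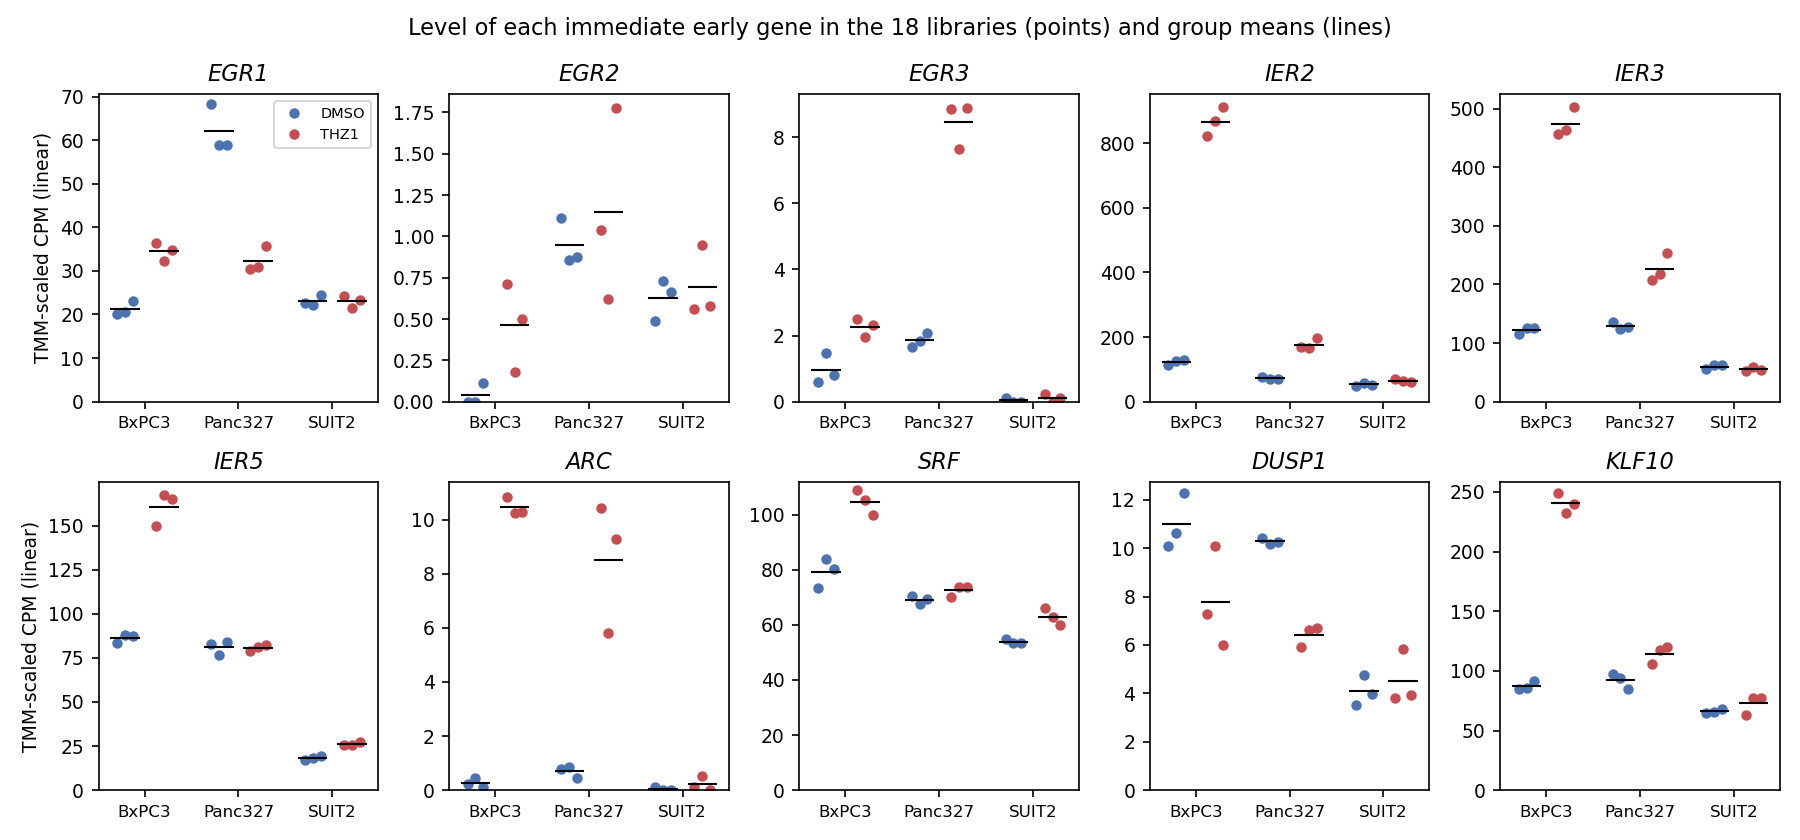
Level of each gene in TMM-scaled CPM on linear axes from 0, with 1 point for each of the 18 libraries and a line at the mean of each group of 3 (blue DMSO, red THZ1). THZ1 points of IER2, IER3, ARC and KLF10 lie above all DMSO points in BxPC3 and Panc327, while EGR1 is above in BxPC3 and below in Panc327.

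Levels are CPM scaled by TMM, a composition correction that sets the median gene near no change. Without it, on library size alone, the median of all genes moved to -0.35 in BxPC3, -0.34 in Panc327 and 0.00 in SUIT2 on the log2 scale. By either scaling, all changes in BxPC3, Panc327 and SUIT2 are relative to the other genes. On library size alone 7 of the 9 genes were called higher and 1 lower in BxPC3, and 4 higher and 4 lower in Panc327. By the same scaling 18.6% of all genes were called higher and 50.7% lower in BxPC3, and 22.6% and 50.3% in Panc327. In bulk RNA a lower level per cell cannot be told apart from fewer expressing cells.

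EGR1 (chr5:138465490-138469315, plus strand, GENCODE 29 on GRCh38) encodes a zinc finger transcription factor that links ERK signalling to later target genes. In BxPC3 its levels were 20.1, 20.6 and 23.0 CPM with DMSO and 36.5, 32.4 and 34.7 CPM with THZ1. The groups did not overlap, and EGR1 rose by 0.70 ± 0.10 (SE) on the log2 scale (adjusted p = 3.45e-10). In Panc327 EGR1 was at 68.3, 58.9 and 58.9 CPM with DMSO and 30.5, 30.8 and 35.7 CPM with THZ1. All THZ1 libraries lay below all DMSO libraries, with a log2 fold change of -0.94 ± 0.08 (adjusted p = 2.64e-18). The THZ1 levels of the lines were 34.5 ± 2.06 (SD, n = 3) CPM in BxPC3 and 32.4 ± 2.91 CPM in Panc327, while the DMSO levels were 21.2 ± 1.56 and 62.0 ± 5.42 CPM. In SUIT2 the levels were 22.7, 22.2 and 24.4 CPM with DMSO and 24.3, 21.4 and 23.4 CPM with THZ1. These groups overlapped (log2 fold change -0.00 ± 0.09, adjusted p = 1).

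EGR3 (chr8:22687659-22693302, minus strand), a related zinc finger factor that is itself an EGR1 target in several cell types, was present at much lower levels. In Panc327 it was at 1.66, 1.82 and 2.07 CPM with DMSO and 8.85, 7.66 and 8.88 CPM with THZ1, a rise of 2.18 ± 0.24 on the log2 scale (adjusted p = 5.73e-14). EGR3 rose in the line in which EGR1 fell. Within the Panc327 libraries the ratio of EGR3 to EGR1 counts, which no scaling touches, went from 0.0244–0.0352 to 0.248–0.290. In BxPC3 EGR3 was at 0.609, 1.47 and 0.797 CPM with DMSO and 2.49, 1.94 and 2.33 CPM with THZ1, and the rise of 1.21 ± 0.38 was called (adjusted p = 0.00311). There the EGR3 to EGR1 ratio overlapped, at 0.0303–0.0714 and 0.0601–0.0683. SUIT2 had 1 EGR3 count over 3 DMSO libraries and 3 over 3 THZ1 libraries, a ratio of 3.06 with a 95% counting interval of 0.246 to 161.

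EGR2 (chr10:62811996-62919900, minus strand), the EGR factor known for its part in myelination and hindbrain development, had at most 10 counts in any library. BxPC3 had 0, 0 and 1 counts with DMSO and 4, 1 and 3 with THZ1. The ratio of their sums, 8 to 1, corrected for library size and TMM, was 11.9 with a 95% counting interval of 1.60 to 530. In Panc327 there were 10, 8 and 8 counts with DMSO and 6, 3 and 9 with THZ1 (ratio 1.22, 0.628 to 2.30). In SUIT2 there were 4, 6 and 6 counts with DMSO and 5, 7 and 5 with THZ1 (ratio 1.09, 0.515 to 2.29). The groups overlapped in Panc327 and SUIT2. When the filter on low counts was dropped, EGR2 in BxPC3 had an adjusted p of 0.0121, against 0.768 in Panc327 and 1 in SUIT2. These intervals cover counting error only.

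The IER genes share a naming by early response and not a common function. IER2 (chr19:13150415-13154908, plus strand) was at 112, 125 and 128 CPM in the DMSO libraries of BxPC3 and at 821, 868 and 910 CPM with THZ1. This was a 7.12-fold rise (log2 2.83 ± 0.05, adjusted p = 3.71e-45), rank 95 from the top among 14011 genes. In Panc327 IER2 went from 77.7, 69.7 and 71.6 CPM to 168, 166 and 197 CPM, a 2.42-fold rise (log2 1.28 ± 0.06, adjusted p = 1.62e-25). In SUIT2 it was at 49.4, 58.2 and 52.1 CPM with DMSO and 70.3, 63.9 and 60.1 CPM with THZ1. These groups did not overlap, and the rise of 0.28 ± 0.07 was called (adjusted p = 0.0047) but was not when the first THZ1 library was left out (0.22, adjusted p = 0.0531).

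IER3 (chr6:30743199-30744554, minus strand), also called IEX-1, is a short protein linked to survival and ERK signalling. It was at 116, 125 and 126 CPM with DMSO and 457, 463 and 503 CPM with THZ1 in BxPC3, a 3.87-fold rise (log2 1.95 ± 0.05, adjusted p = 1.09e-42). In Panc327 it went from 136, 125 and 127 CPM to 207, 218 and 254 CPM (log2 0.81 ± 0.06, adjusted p = 5.94e-21). Both pairs of groups were apart. In SUIT2 IER3 was at 55.0, 62.3 and 61.9 CPM with DMSO and 51.6, 58.7 and 54.8 CPM with THZ1, which overlapped (log2 -0.12 ± 0.07, adjusted p = 0.267).

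IER5 (chr1:181088712-181092899, plus strand) encodes a partner of the heat shock factor HSF1 and of the phosphatase PP2A. In BxPC3 its levels were 83.7, 88.1 and 87.2 CPM with DMSO and 150, 167 and 165 CPM with THZ1 (log2 0.90 ± 0.06, adjusted p = 9.38e-27). In SUIT2 it went from 16.9, 18.3 and 19.3 CPM to 25.5, 25.6 and 27.2 CPM, the largest called change among the 9 genes in that line (log2 0.52 ± 0.09, adjusted p = 1.62e-05). In Panc327 the groups overlapped at 83.1, 76.8 and 84.2 CPM with DMSO and 79.0, 81.3 and 82.3 CPM with THZ1 (log2 -0.01 ± 0.06, adjusted p = 0.904). On library size alone IER5 in Panc327 was called lower (-0.34, adjusted p = 1.66e-06), while with RLE size factors its sign was positive (0.11, adjusted p = 0.113).

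ARC (chr8:142611044-142614472, minus strand), known as a regulator of synaptic plasticity in neurons, was close to undetected with DMSO. It passed the filter on low counts only through THZ1 libraries of BxPC3 and Panc327, so its fitted changes there are descriptions. BxPC3 libraries had 0.243, 0.452 and 0.114 CPM with DMSO and 10.8, 10.3 and 10.3 CPM with THZ1. This corresponds to 7 counts against 181 and a ratio of 38.6 with a 95% counting interval of 18.4 to 97.4 (log2 5.19 ± 0.35, adjusted p = 8.72e-25). In Panc327 ARC went from 0.776, 0.858 and 0.437 CPM to 10.4, 5.79 and 9.27 CPM (19 against 135 counts, log2 3.61 ± 0.30, adjusted p = 2.67e-19). SUIT2 had 1 count over its DMSO and 5 over its THZ1 libraries, a ratio of 5.11 with an interval of 0.571 to 242. Per kilobase of exon, ARC in BxPC3 with THZ1 was at 3.55 CPM, where IER2 was at 282.

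SRF (chr6:43171299-43181507, plus strand) encodes the CArG box factor itself. In BxPC3 it was at 73.3, 83.9 and 80.4 CPM with DMSO and 109, 105 and 99.8 CPM with THZ1. The groups were apart (log2 0.40 ± 0.06, adjusted p = 5.52e-09), but on library size alone the change was 0.00 (adjusted p = 0.966). In SUIT2 SRF went from 54.8, 53.5 and 53.3 CPM to 66.0, 62.9 and 59.7 CPM (log2 0.22 ± 0.06, adjusted p = 0.0107), a call lost without the first THZ1 library (0.19, adjusted p = 0.0783). In Panc327 it was at 70.6, 67.6 and 69.2 CPM with DMSO and 69.9, 73.9 and 73.8 CPM with THZ1 (log2 0.07 ± 0.07, adjusted p = 0.356). Its direction there depended on scaling, since it was called lower on library size alone (-0.26, adjusted p = 0.000268) and higher with RLE size factors (0.18, adjusted p = 0.00861).

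DUSP1 (chr5:172768090-172771195, minus strand), a nuclear phosphatase that inactivates MAP kinases, was the only one of the 9 called lower in BxPC3. Its levels there were 10.1, 10.6 and 12.3 CPM with DMSO and 7.29, 10.1 and 5.98 CPM with THZ1. The second THZ1 library nearly reached the lowest DMSO library (log2 -0.51 ± 0.16, adjusted p = 0.00411), and without the third THZ1 library the call was lost (-0.34, adjusted p = 0.0857). In Panc327 DUSP1 was at 10.4, 10.2 and 10.3 CPM with DMSO and 5.90, 6.62 and 6.71 CPM with THZ1, clearly apart (log2 -0.69 ± 0.18, adjusted p = 0.000332). In SUIT2 the groups overlapped at 3.52, 4.76 and 3.98 CPM with DMSO and 3.81, 5.83 and 3.94 CPM with THZ1 (log2 0.13 ± 0.21, adjusted p = 0.762). The ratio of IER2 to DUSP1 counts in single libraries went from 10.4–11.7 to 86.1–152 in BxPC3 and from 6.84–7.46 to 25.1–29.3 in Panc327. In SUIT2 it was 12.2–14.0 with DMSO and 10.98–18.5 with THZ1, which overlapped.

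KLF10 (chr8:102648779-102655902, minus strand), also known as TIEG1, is a zinc finger repressor induced by TGF-beta. In BxPC3 it went from 85.1, 85.4 and 91.8 CPM to 249, 232 and 240 CPM, a 2.75-fold rise (log2 1.46 ± 0.06, adjusted p = 4.63e-40). In Panc327 it was at 97.0, 93.7 and 85.1 CPM with DMSO and 106, 117 and 120 CPM with THZ1. These groups did not overlap and the rise of 0.31 ± 0.06 was called (adjusted p = 5.05e-06), but on library size alone the change was -0.01 (adjusted p = 0.861). In SUIT2 KLF10 was at 64.6, 65.8 and 68.2 CPM with DMSO and 63.4, 77.4 and 77.2 CPM with THZ1, with the lowest THZ1 library below all DMSO libraries (log2 0.13 ± 0.06, adjusted p = 0.182). Without that library it was called higher (0.22, adjusted p = 0.0172).

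**Figure D3:**
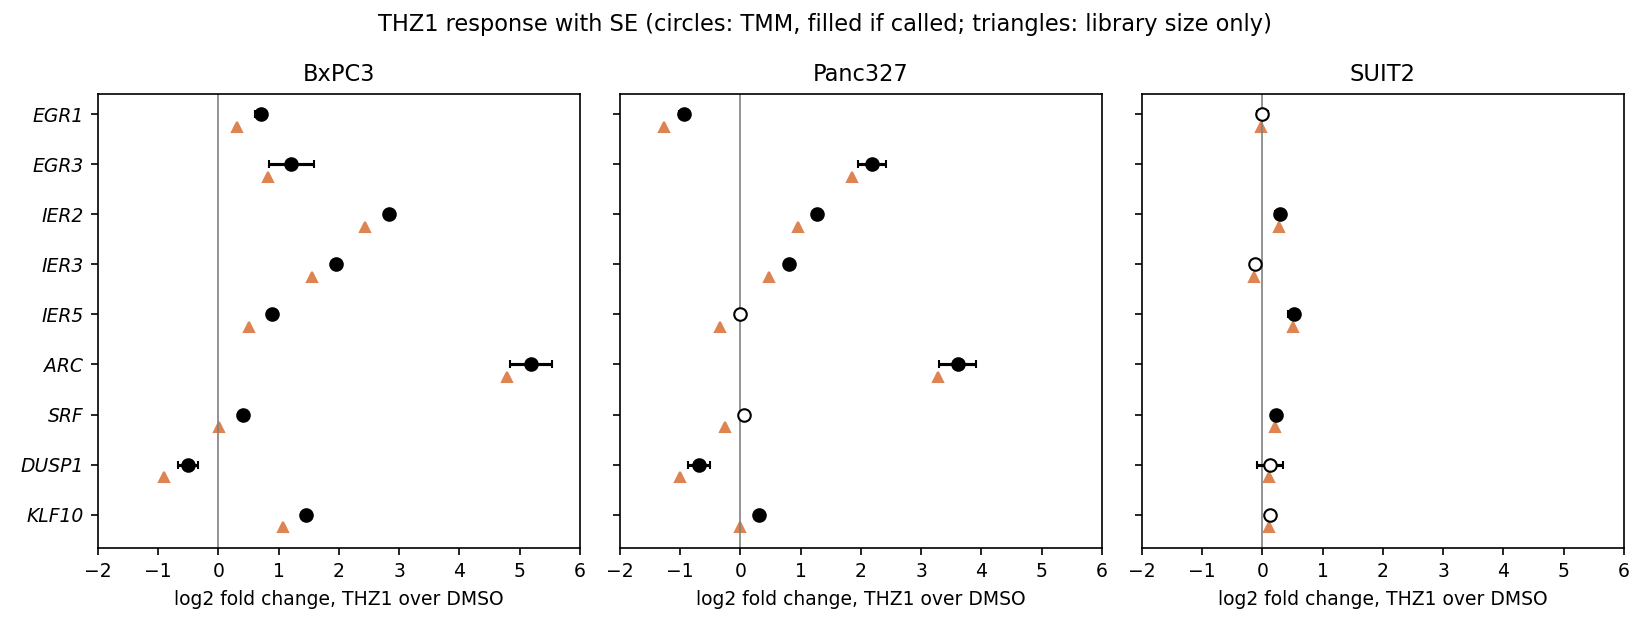
Log2 fold change of THZ1 over DMSO in each line with its approximate SE (circles, filled where the adjusted p was under 0.05) and the value on library size alone (triangles); EGR2, and ARC and EGR3 in SUIT2, are left out for low counts. Triangles lie to the left of circles in BxPC3 and Panc327, and SRF in BxPC3 and KLF10 in Panc327 sit at 0.00 and -0.01 by this scaling.

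Further calls in BxPC3 and Panc327 held their direction on library size alone but were smaller or larger by it. EGR1 in BxPC3 was at 0.30 (adjusted p = 0.00344), EGR3 at 0.81 (adjusted p = 0.0471), IER5 at 0.50 and DUSP1 at -0.90. IER3 in Panc327 was at 0.48. Within libraries, where scaling plays no part, the ratio of IER2 to EGR1 counts rose from 5.56–6.05 to 22.5–26.8 in BxPC3 and from 1.14–1.21 to 5.40–5.50 in Panc327. In SUIT2 it was 2.14–2.62 with DMSO and 2.57–2.99 with THZ1, which overlapped.

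Reads of 4 of the genes could be shared with annotated partners. EGR3 overlaps 1 other annotated gene on the opposite strand, and IER2, IER3 (IER3-AS1) and DUSP1 each overlap an antisense gene. The strand setting of the counting is not given in the sources used here, so reads of these pairs cannot be told apart.

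Compared per kilobase of exon, IER3 had the highest level of the 10 genes in all 6 groups, followed by IER2 and KLF10. In BxPC3 with DMSO these were 90.3, 39.6 and 21.8 CPM per kilobase, and IER5 (20.6) and SRF (18.8) followed, each within the summed SD of its neighbour. EGR1 (6.76) and DUSP1 (5.45) came next, and EGR3, ARC and EGR2 were at 0.215, 0.0916 and 0.0121. With THZ1 IER3 and IER2 in BxPC3 reached 350 and 282 CPM per kilobase, while KLF10 was at 60.05 (all means of 3 libraries). In Panc327 with DMSO EGR1 (19.8) lay within the spread of KLF10 (23.0) and IER5 (19.4). With THZ1 it was the sixth of the 10 at 10.3 and apart from SRF above it. In SUIT2 the order of the 10 genes was the same with DMSO and THZ1, with IER3 at 44.0 and 40.6 and IER2 at 17.3 and 21.1, the latter not apart from KLF10 in either group. The last places there, of ARC and EGR3, rest on 1 count each with DMSO and on 5 and 3 with THZ1. ARC and EGR3 were not apart in either group.

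The lines also differed with DMSO alone. Panc327 had higher levels than SUIT2 of all 9 tested genes (82.5% of all genes were called, 42.9% higher and 39.6% lower). The smallest of these log2 differences was 0.36 ± 0.06 for SRF and that of IER5 was 2.16 ± 0.07 and of EGR1 1.42 ± 0.08. Those of EGR3 and ARC rest on 1 count each in SUIT2. BxPC3 had higher levels than SUIT2 of 7 of 9, among them IER5 (2.25 ± 0.07), DUSP1 (1.43 ± 0.17) and IER2 (1.19 ± 0.07), and 0 lower (78.6% called over all genes, 38.9% higher and 39.7% lower). EGR1 was not called there (-0.12 ± 0.10, adjusted p = 0.231), nor was ARC (adjusted p = 0.0515). Between BxPC3 and Panc327, 2 genes were higher in BxPC3 (IER2 0.74 ± 0.06 and SRF 0.20 ± 0.06) and 2 lower (EGR1 -1.54 ± 0.08 and EGR3 -0.93 ± 0.35), against 79.3% of all genes called, 38.6% higher and 40.7% lower. The EGR3 difference was lost without the first DMSO library of BxPC3 (-0.70, adjusted p = 0.0882) or without the third (-0.80, adjusted p = 0.0579).

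Whether the response to THZ1 differed between lines was tested as the difference of the log2 fold changes. These differences share DMSO and THZ1 libraries of a line, so they are not independent of each other. BxPC3 exceeded Panc327 in 7 of 9 genes and fell below it in 0, where 36.3% of all genes were called, 22.2% higher and 14.1% lower. The difference was 1.64 ± 0.13 for EGR1 (adjusted p = 4.78e-20), 1.56 ± 0.08 for IER2 (adjusted p = 9.24e-23), 1.15 ± 0.08 for IER3 (adjusted p = 1.88e-20), 1.15 ± 0.08 for KLF10 (adjusted p = 3.68e-21) and 0.91 ± 0.08 for IER5 (adjusted p = 4.46e-16). That of SRF was 0.33 ± 0.09 (adjusted p = 0.00146) and was lost when only these 2 lines were fitted (0.20, adjusted p = 0.0567). ARC passed the filter on low counts only through THZ1 libraries, so its difference of 1.58 ± 0.65 (adjusted p = 0.0484) is a description. It was close to the threshold, and 8 of 12 fits without 1 library lost the call, with adjusted p up to 0.175. The ARC call was also lost with RLE size factors, on library size alone, with DESeq2 and when only these 2 lines were fitted (adjusted p = 0.0542 to 0.0733). DUSP1 (0.18 ± 0.24, adjusted p = 0.625) and EGR3 (-0.98 ± 0.47, adjusted p = 0.0951) were not called. EGR3 was called lower when only these 2 lines were fitted (-1.11, adjusted p = 0.0473) and without the first DMSO library of BxPC3 (-1.20, adjusted p = 0.0496).

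Against SUIT2, BxPC3 exceeded in 5 of 9 genes and was lower in 1 (54.9% of all genes were called, 27.3% higher and 27.6% lower). IER2 differed by 2.55 ± 0.09 (adjusted p = 6.96e-31), IER3 by 2.08 ± 0.09 (adjusted p = 1.38e-30), KLF10 by 1.33 ± 0.09 (adjusted p = 1.58e-24), EGR1 by 0.70 ± 0.13 (adjusted p = 4.33e-06) and IER5 by 0.37 ± 0.11 (adjusted p = 0.0021). On library size alone the difference was -0.00 for IER5 (adjusted p = 1) and 0.32 for EGR1 (adjusted p = 0.0343). DUSP1 was lower by -0.63 ± 0.27 (adjusted p = 0.0364), a call lost in 6 of 12 fits without 1 library (adjusted p up to 0.208). That call was also lost with RLE size factors (-0.59, adjusted p = 0.054) and with DESeq2 (-0.59, adjusted p = 0.0913). Panc327 exceeded SUIT2 for IER2 (0.99 ± 0.10, adjusted p = 2.49e-13) and IER3 (0.93 ± 0.09, adjusted p = 2.91e-14). It was lower for EGR1 (-0.94 ± 0.13, adjusted p = 3.7e-10), DUSP1 (-0.81 ± 0.28, adjusted p = 0.00784) and IER5 (-0.53 ± 0.11, adjusted p = 2.15e-05). These 2 and 3 of 9 stand beside 60.7% of all genes called, 28.3% higher and 32.4% lower. The DUSP1 difference was lost without the second THZ1 library of SUIT2 (-0.61, adjusted p = 0.0691).

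Of 32 other primary response genes outside AP-1, 31 were tested, and 20 were higher and 4 lower with THZ1 in BxPC3 (median log2 fold change 0.37, all genes 35.2% higher and 34.1% lower). In Panc327 the counts were 7 higher and 20 lower (median -0.47, all genes 35.6% and 37.8%), and in SUIT2 7 higher and 0 lower (median 0.18, all genes 6.95% and 7.64%). IER5L, a relative of IER5, rose in BxPC3 from 37.8 ± 7.68 to 251 ± 32.3 CPM (log2 2.73) and in Panc327 from 21.8 ± 2.17 to 75.3 ± 4.18 CPM (log2 1.79). In BxPC3 SGK1, a kinase induced by serum and glucocorticoids, rose by 1.90. PLK3, a stress-responsive polo-like kinase, fell there by 1.74 and BTG2, an antiproliferative gene, by 0.82. SGK1 and PLK3 were both called lower in Panc327 (-0.30 and -0.45). In Panc327 ID2, a helix-loop-helix inhibitor, rose by 1.94. It was also called higher in BxPC3 (4.03) and SUIT2 (0.77), at means under 10 CPM. The matricellular genes CYR61 and CTGF fell in Panc327 by 2.41 and 2.04, CYR61 from 678 ± 19.2 to 127 ± 12.4 CPM. CYR61 was also called lower in BxPC3 (-0.68) but higher in SUIT2 (0.26). In SUIT2 CTGF and the stress gene GADD45B each rose by 0.31. GADD45B was also called higher in BxPC3 (1.67) and Panc327 (1.23). CTGF was also called higher in BxPC3 (0.60, adjusted p = 0.0034), at a mean under 10 CPM. The CTGF call in SUIT2 was lost with DESeq2 (0.31, adjusted p = 0.0535) and without the first DMSO, the second DMSO or the third THZ1 library (0.22 to 0.28, adjusted p = 0.0593 to 0.179), and that of GADD45B without the third DMSO, the first THZ1 or the third THZ1 library (0.27 to 0.29, adjusted p = 0.0607 to 0.101). The list had 11 higher and 11 lower in BxPC3 (median -0.03), and 6 and 22 in Panc327, on library size alone. By that scaling 18.6% of all genes were higher and 50.7% lower in BxPC3, and 22.6% and 50.3% in Panc327.

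Of 18 regulators of SRF, ERK signalling and EGR factors, 17 were tested. BxPC3 had 5 higher and 6 lower (median 0.05), shares of 17 near those of all genes (35.2% and 34.1%), and Panc327 had 8 higher and 4 lower (median 0.03, all genes 35.6% and 37.8%). The median was -0.04 in BxPC3 without the third DMSO library and -0.02 in Panc327 with no filter. The ERK pathway kinases MAP2K1 and MAPK3 rose in BxPC3 (0.92 and 0.67) and Panc327 (0.93 and 1.03). CREB1, the factor that binds CRE elements, fell in both lines, from 51.4 ± 3.55 to 11.4 ± 0.33 CPM in BxPC3 (log2 -2.17) and from 42.3 ± 1.76 to 11.6 ± 2.64 CPM in Panc327 (log2 -1.87). NAB2, a corepressor of EGR factors, fell by 1.34 in BxPC3 and was also called lower in Panc327 (-0.95). MKL1, an actin-controlled coactivator of SRF, fell by 1.45 in Panc327 and was not called in BxPC3 (-0.16). The counts were 4 and 11 in BxPC3 (median -0.34) and 3 and 8 in Panc327 (median -0.29) on library size alone. All genes by that scaling were 18.6% higher and 50.7% lower in BxPC3, and 22.6% and 50.3% in Panc327. In SUIT2 edgeR called 0 of 17, where it called 14.6% of all genes (6.95% higher and 7.64% lower). DESeq2 also called 0 of 17, and 1 had an unadjusted p under 0.05 by edgeR.

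The 20 cytoskeletal targets of SRF and its MRTF coactivators were all tested. In BxPC3 14 were higher and 3 lower (median 0.41, all genes 35.2% and 34.1%), and in Panc327 17 and 2 (median 0.58, all genes 35.6% and 37.8%). In SUIT2 the counts were 2 and 2 (median 0.03), close to the shares of all genes (6.95% and 7.64%). The actin-binding gene TAGLN and the LIM domain gene FHL1 rose in BxPC3 by 1.15 and 1.05, while FHL2 and TGFB1I1, also LIM domain genes, fell by 0.96 and 0.68. In Panc327 TAGLN2 and TPM2 rose by 0.93 and 0.75, and FILIP1L and FHL2 fell by 2.57 and 0.36. TAGLN and FHL1 were also called higher in Panc327 (0.57 and 1.03), while TGFB1I1 was not called there (0.02). TAGLN2 and TPM2 were also called higher in BxPC3 (1.02 and 0.78), and FILIP1L lower (-0.79). In SUIT2 FLNA and TPM2 rose by 0.25 and 0.17, and TPM1 and FHL2 fell by 0.18 and 0.16. The FHL2 call in SUIT2 was lost without the third DMSO library (-0.13, adjusted p = 0.154) or the third THZ1 library (-0.14, adjusted p = 0.13). On library size alone the list had 7 higher and 5 lower in BxPC3 (all genes 18.6% and 50.7%). In Panc327 it had 12 and 3 (all genes 22.6% and 50.3%).

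**Figure D4:**
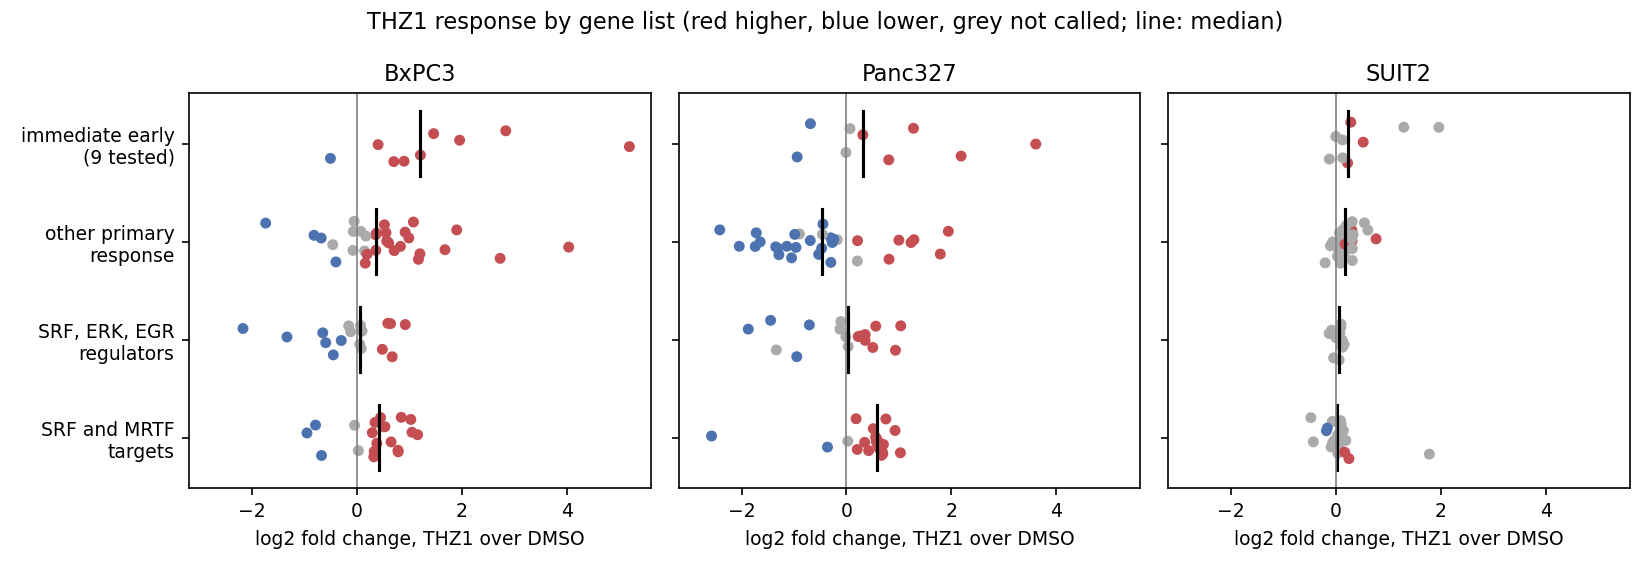
Log2 fold change of THZ1 over DMSO for each tested gene of 4 lists in each line (1 point a gene, red called higher, blue called lower, grey not called, black line the median). The 9 immediate early genes have 8 red points in BxPC3, where 35.2% of all genes were called higher. The other primary response genes have 20 blue points in Panc327, where 37.8% of all genes were called lower. ARC and EGR3 are among the grey points in SUIT2 on very few counts.

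Across the 18 libraries the profile most like IER2 among 10986 other genes was that of FOS (Pearson r = 0.987), followed by RSRP1 (0.987) and FOXJ3 (0.981). Among the tested genes of the list described here, KLF10 was closest to IER2 (0.971). Outside that list the genes closest to KLF10 were DR1 (0.992), NXF1 (0.980) and SMG1P3 (0.970). EGR1 was most like LSG1 (0.963), MICAL3 (0.937) and TMEM11 (0.934), and the closest to it within the list was EGR3 at only 0.515. SRF was most like LNX2 (0.980), ATP6V1B2 (0.965) and CCAR2 (0.964), and DUSP1 most like ZBED2 (0.955), CHST15 (0.943) and TBC1D20 (0.940). These are correlations of log2 CPM over 18 libraries that fall into 6 groups and share line and treatment, so they describe the profiles and carry no test.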

How the data were processed

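The authors deposited 18 files of raw counts of reads per gene symbol. Per the submitters' processing notes, the tools were HTSeq 0.6.1, TopHat2 2.1.0 and bcl2fastq 1.8.4, with build hg38. Libraries were made with the TruSeq RNA v2 kit, per the labels. Annotation, strandedness and overlap mode of the counting were not given in the sources used here. The 5 summary entries of the counting tool (21.3% to 64.6% of records), among them reads not aligned uniquely, were left out, so genes with close copies can be undercounted.

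The analysis used edgeR 4.0.16 (R 4.3.3): filterByExpr (minimum count 10, minimum total 15) kept 14011 genes, TMM scaled the libraries, and a robust quasi-likelihood model was fitted to the 6 groups, leaving 12 residual degrees of freedom. Benjamini-Hochberg adjusted p under 0.05 over all tested genes made a call. SE was approximated from the log2 fold change and the square root of its F statistic. Each list gene named is among the 2 called genes with the largest rise or fall per line with a mean of at least 10 CPM. Similar profiles are the 3 highest Pearson correlations of log2 CPM (prior count 2). The genes and lists were chosen with earlier results of these data known. Counting intervals cover 95%.

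Alternatives were DESeq2 1.42.0, limma 3.58.1 voom, RLE size factors, scaling by library size alone, dropping the filter, only the groups compared, a replicate block and leaving out each library. The pipeline was tested on simulated data. Figures were made with Python 3.11.15 and matplotlib 3.10.9. Positions are from GENCODE 29 and promoters from RefSeq. Promoter sequences of EGR3, ARC, KLF10 and IER3 and protein sequences were not used here.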

Additional observations from a re-analysis of the deposited data

Results flagged for a closer look

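For 18 gene and line-pair combinations the difference between 2 lines in the log2 response to THZ1 had an adjusted p under 0.05 by edgeR's quasi-likelihood test. Over all tested genes 36.3% were called between BxPC3 and Panc327, 54.9% between BxPC3 and SUIT2 and 60.7% between Panc327 and SUIT2. Between BxPC3 and Panc327 they were EGR1 (1.64), IER2 (1.56), IER3 (1.15), IER5 (0.91), ARC (1.58), SRF (0.33) and KLF10 (1.15), each larger in BxPC3. Between BxPC3 and SUIT2 they were EGR1 (0.70), IER2 (2.55), IER3 (2.08), IER5 (0.37) and KLF10 (1.33), each larger in BxPC3, and DUSP1 (-0.63). Between Panc327 and SUIT2, IER2 (0.99) and IER3 (0.93) were larger in Panc327, while EGR1 (-0.94), IER5 (-0.53) and DUSP1 (-0.81) were smaller. ARC passed the filter on low counts only through THZ1 libraries, so its difference is a description. The ARC call was lost in 8 of 12 fits without 1 library. Those of DUSP1 were lost in 6 of 12 such fits between BxPC3 and SUIT2 and in 1 of 12 between Panc327 and SUIT2. The SRF call was lost when only BxPC3 and Panc327 were fitted, and that of IER5 between BxPC3 and SUIT2 on library size alone. With TMM scaling EGR1 is the gene whose called changes had opposite signs in 2 lines. On library size alone IER5 and SRF also had such changes. IER5 was called higher in BxPC3 (0.50) and lower in Panc327 (-0.34). SRF was called lower in Panc327 (-0.26) and higher in SUIT2 (0.21).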

How the results depend on the processing

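Immediate early genes called with THZ1 were 8 higher and 1 lower in BxPC3, 5 and 2 in Panc327, and 3 and 0 in SUIT2. Over all tested genes 69.4%, 73.4% and 14.6% were called in these lines. Without the third THZ1 library of BxPC3 the count called lower there was 0. On library size alone the count called lower was 4 in Panc327, where 50.3% of all genes were called lower by that scaling. DESeq2 called 1348 genes in SUIT2, where edgeR called 2044. On library size alone the Panc327 changes of SRF (-0.26) and KLF10 (-0.013), the BxPC3 minus SUIT2 differences of IER5 (-0.0050) and SRF (-0.20) and the Panc327 minus SUIT2 difference of KLF10 (-0.13) took the other sign. That KLF10 difference (0.18, not called) was called higher with RLE (0.31, adjusted p = 0.00227), with DESeq2 (0.30, adjusted p = 0.00587) and in 5 fits without 1 library (0.22 to 0.28). IER5 in Panc327 was 0.11 with RLE size factors and 0.11 with DESeq2. The BxPC3 minus SUIT2 difference of EGR3 was 0.44 with limma voom. Voom also called the ARC differences to SUIT2 of BxPC3 (4.10, adjusted p = 0.000193) and Panc327 (2.51, adjusted p = 0.0113), which edgeR did not call. Both rest on very few SUIT2 counts. The cause was not tested. Leaving out single libraries moved values across 0 that were not called: IER5 in Panc327 (-0.023 to 0.030), EGR1 in SUIT2 (-0.044 to 0.043), DUSP1 in SUIT2 (-0.076 to 0.24), the DUSP1 difference of BxPC3 and Panc327 (-0.049 to 0.34), and, on very few SUIT2 counts, the differences to SUIT2 of EGR3 in BxPC3 (-1.84 to 0.71) and Panc327 (-0.86 to 1.68) and of ARC in Panc327 (-0.11 to 3.21). Same-numbered libraries did not deviate together (correlations -0.093 to 0.066, against -0.074 to 0.077 for other numbers). No effect of pairing by replicate number was thus seen, but libraries could be paired by number without such an effect. With the replicate number as a block, 9692, 10249 and 1952 genes were called in BxPC3, Panc327 and SUIT2, against 9722, 10283 and 2044 without it, and the counts of immediate early genes were the same. EGR2, EGR3 and ARC in SUIT2 are limited by depth.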
